A study of Rattus norvegicus with 4 samples.

Results

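The comparison set whole rat testis 24 h after retinol against whole testis 4 h after retinol, in animals that had been made deficient in vitamin A. It used 2 of the 4 arrays of the series, and every gene of those arrays was followed. The 4 h group held testis of rats fed, from 20 days of age and for 9 weeks, a diet that lacked vitamin A and then given retinol, with the tissue taken 4 h later. The 24 h group differed from it by label only in the time after retinol. Both groups were therefore deficient animals under treatment, and neither was an untreated or a vitamin A-sufficient control. The sources used here do not give the strain, the dose and route of retinol, or how many animals stand behind an array. An array of the untreated deficient testis (0 h) and an 8 h array completed the series, and their values are given beside some genes but entered neither side of the comparison.

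Retinol is the transport and storage alcohol of vitamin A, which cells oxidise by way of retinal to retinoic acid. Retinoic acid binds nuclear receptors of the RAR family, which pair with RXR receptors on DNA. In the testis it is required for spermatogonia to differentiate and enter meiosis, and in its absence the seminiferous tubules lose their later germ cells while Sertoli cells and the steroid-producing Leydig cells of the interstitium remain. Whole testis holds all of these cells, so in these bulk samples fewer cells of a type and less RNA per cell cannot be told apart.

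The deposited value of a transcript was a linear ratio to a reference that the sources used here do not name, so a value near 1 means near that reference and says nothing about abundance. The labelled tissue could not be checked against its markers for the same reason. The median ratio over all probe sets was 0.934 on the 4 h array and 0.922 on the 24 h array. A gene's change is the log2 ratio at 24 h minus that at 4 h, averaged over the probe sets (groups of short probes for 1 transcript sequence) that carry its symbol alone. The changes of all 4736 genes had a median of -0.03 and an SD of 0.39, and their 5th and 95th percentiles were -0.61 and 0.60. With 1 array a side no difference could be tested, and a gene is counted here only as past or short of a 2-fold change.

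Between 4 h and 24 h, 117 genes moved past 2-fold (2.47% of all genes). The later array was the higher one by 2-fold or more for 50 of them (1.06%) and the lower one for 67 (1.41%). The largest positive change, 5.95-fold, was that of the secreted phospholipase gene Pla2g2a. The largest negative change, 14.6-fold, was that of Dpysl4, a collapsin response mediator gene of the cytoskeleton. Each was read by 1 probe set, and the Dpysl4 fold rests on a low 24 h ratio of 0.0703. Genes more than 4-fold higher numbered 3 and genes more than 4-fold lower 6. Of the higher set 35 of 50 (70.0%) were under a ratio of 1 at 4 h, against 62.2% of all genes, and a low 4 h value is partly fixed by how the set is chosen. From under 1 at 4 h to over 1 at 24 h went 33 of the 50, against 521 of all 4736 genes, and 15 were over 1 on both arrays. Of the lower set, 41 of 67 went from over 1 to under 1, against 462 of all 4736 genes, and 15 were under 1 on both. These crossings, too, are partly fixed by how the sets are chosen.

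**Figure D1:**
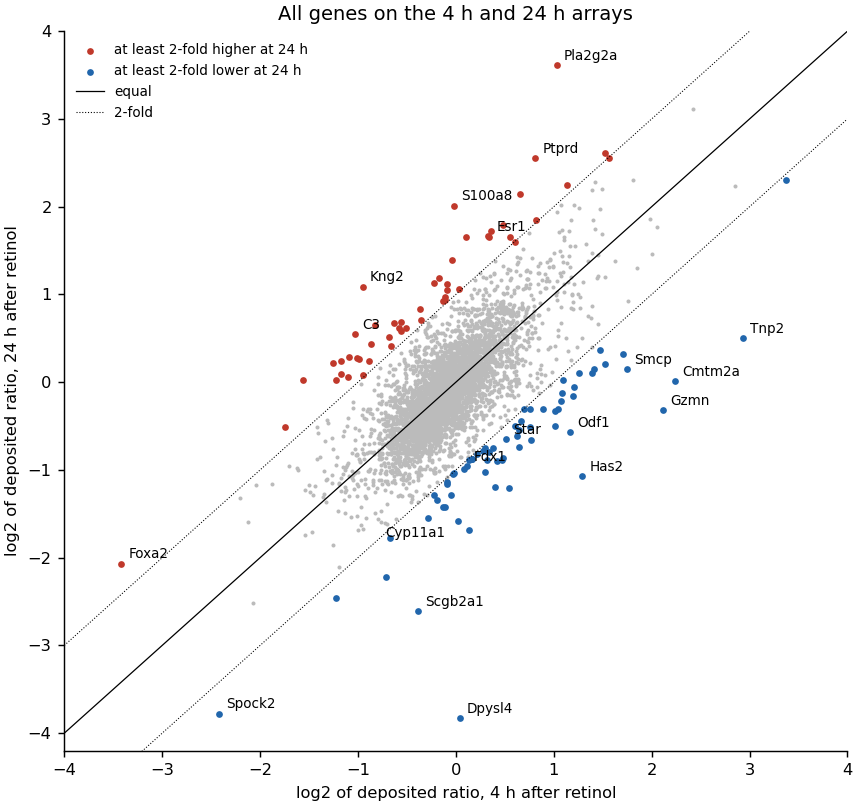
Log2 of the deposited ratio 4 h after retinol (horizontal) and 24 h after retinol (vertical), a point for each of 4736 genes. Red points are the 50 genes at least 2-fold higher at 24 h and blue points the 67 at least 2-fold lower, the solid line marks equal values and the dotted lines a 2-fold difference.

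The error that these data can give comes from genes read by probe sets of different database sequences. Over 1083 such genes the noise of 1 probe set, taken from the difference between members of a pair, had an SD of 0.38 on the log2 scale. This noise does not include differences between animals. Across these genes the changes read by the members of a pair correlated at r = 0.21, as a description. In 71 pairs at least 1 member was past 2-fold, both members had the same sign in 51 of them, and both were past 2-fold the same way in 1. Most of the genes past 2-fold, 103 of 117, were read by 1 probe set. For these genes no other sequence on the array read the change, and the values below are to be read with that.

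The genes whose probe sets from different sequences agreed form a short set. Scd, the stearoyl-CoA desaturase gene that makes monounsaturated fatty acids, was the 1 gene of 1083 with every probe set 2-fold lower or more (0.0923%), and 0 genes had every probe set past 2-fold in the other direction (0.0%). The average Scd ratio fell from 1.69 on the 4 h array through 1.23 (8 h) to 0.70 (24 h). Its probe sets stood at 3.55, 2.11 and 1.28 (a change of -1.47) and at 0.808, 0.711 and 0.383 (-1.08), so neither crossed 1. At a threshold of 1.5-fold in every probe set, 11 genes were lower (1.02%) and 5 higher (0.462%). The lower genes were Scd, the neurofilament gene Nefh (-1.21), Star (-1.16), the kinesin gene Kifc3 (-1.14), Fdx1 (-1.07), the nuclear lamina gene Lmnb1 (-0.96), the vitamin D hydroxylase gene Cyp24a1 (-0.90), the sperm hyaluronidase gene Spam1 (-0.89), Ppil3 (-0.88), Camkv (-0.78) and Camk2a (-0.70). The higher genes were the complement gene C3 (1.58), the gonadotropin-releasing hormone receptor gene Gnrhr (0.94), the ubiquitin hydrolase gene Uchl1 (0.81), the phosphatidylinositol 3-kinase regulatory subunit gene Pik3r1 (0.80) and the calpain gene Capn8 (0.78). Star and Fdx1 of steroid synthesis were thus both among the lower genes, and Spam1 among them is a spermatid gene.

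**Figure D2:**
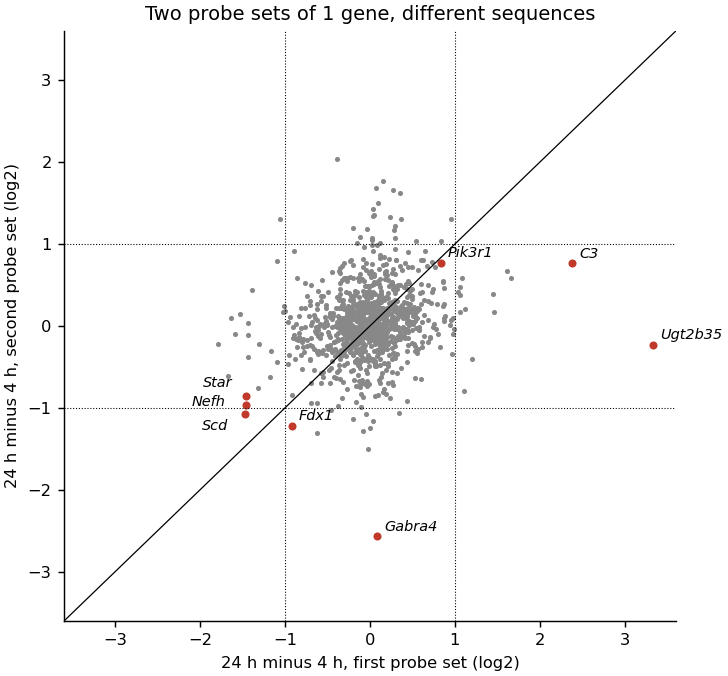
Change from 4 h to 24 h (log2) read by a pair of probe sets of the same gene made from different database sequences, a point for each of 1083 genes, with the solid line at equal values and dotted lines at 2-fold. Scd lies past 2-fold on both axes, Star, Nefh and Fdx1 lie close to it, and Ugt2b35 and Gabra4 are past 2-fold on 1 axis and near 0 on the other.

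In steroid synthesis, 3 genes were lower by 2-fold or more at 24 h, Star, Cyp11a1 and Fdx1, while most of the Leydig cell list was not. Testosterone is made in Leydig cells from cholesterol, which the Star protein carries into mitochondria. There the enzyme of Cyp11a1 cleaves the side chain with electrons from ferredoxin, the product of Fdx1. The 3-beta-hydroxysteroid dehydrogenases and the Cyp17a1 enzyme follow, and that of Hsd17b3 makes testosterone. Cyp11a1 had ratios of 1.09, 1.04 and 0.313 at 4, 8 and 24 h, a change of -1.80 or 3.49-fold from 1 probe set. The early arrays were level for this gene, and the low value stood on the 24 h array. Star had ratios of 1.43, 1.05 and 0.639 at 4, 8 and 24 h, a change of -1.16, with its probe sets at -1.46 and -0.86. Fdx1 had ratios of 1.08, 0.751 and 0.515, a change of -1.07, with probe sets at -1.22 and -0.92. For these genes the 8 h value lay between the others. Cyp17a1 was short of 2-fold, at 0.615, 0.526 and 0.326 (-0.92), and so were Hsd17b3 (1.28, 1.23 and 0.926, or -0.47) and Scarb1, the lipoprotein receptor gene that takes up cholesterol (-0.56). The measured gene of the 3-beta-hydroxysteroid dehydrogenase family, Hsd3b5, was near its 4 h value at 0.02, and so was the sterol carrier gene Scp2 at 0.01. The family members Hsd3b1, Hsd3b2 and Hsd3b6 gave no value, so their step as a whole was not read.

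A pair of regulator genes of this pathway, Nr5a1 and Nr0b1, had positive changes in the same tissue, each read by 1 probe set. Nr5a1, which encodes SF-1, the nuclear receptor that switches steroid synthesis genes on, had ratios of 1.31, 1.81 and 2.36 at 4, 8 and 24 h, a change of 0.84. Nr0b1, which encodes DAX1, a repressor that acts on SF-1, stood at 3.50, 5.77 and 4.91, a change of 0.49. Both were short of 2-fold between 4 h and 24 h. The luteinising hormone receptor gene Lhcgr, read by 5 probe sets, was at -0.16. Of the 19 measured genes of the Leydig list, 3 were lower by 2-fold or more and 0 higher, against 1.41% and 1.06% of all genes. The list's median was -0.05, against -0.03 over all genes. Scaling the arrays on spike-ins moved that median to 0.08 and the change of Fdx1 to -0.93, short of 2-fold. The members past 2-fold were Cyp11a1, Star and Fdx1, and the rest of the list lay on both sides of 0 (9 above, 10 below). Genes that are bound to the same synthesis chain in other ways were spread likewise: Por, the electron donor of microsomal P450 enzymes, was at 0.06, Cyb5a at 0.19, Tspo at -0.23 and the aromatase gene Cyp19a1 at 0.38.

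The promoters of Cyp11a1 and Fdx1 are shown because these genes stand at the same enzymatic step and were lower together. The windows run from 250 bases before to 50 after the start in RefSeq's GRCr8 and are written 5′ to 3′ on the gene's strand. Capitals mark, for Cyp11a1, the hexamer AGGTCA that nuclear receptors bind and, for Fdx1, the SF-1 motif AAGGCCA, which lies there on the opposite strand.
Cyp11a1 promoter, chr8:67318415-67318714 (+ strand): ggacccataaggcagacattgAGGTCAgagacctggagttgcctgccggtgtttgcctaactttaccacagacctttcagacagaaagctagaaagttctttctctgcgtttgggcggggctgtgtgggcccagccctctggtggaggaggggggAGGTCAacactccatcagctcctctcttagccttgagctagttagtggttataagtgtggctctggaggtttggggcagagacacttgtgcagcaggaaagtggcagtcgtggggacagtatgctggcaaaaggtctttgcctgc
Fdx1 promoter, chr8:61183596-61183895 (- strand): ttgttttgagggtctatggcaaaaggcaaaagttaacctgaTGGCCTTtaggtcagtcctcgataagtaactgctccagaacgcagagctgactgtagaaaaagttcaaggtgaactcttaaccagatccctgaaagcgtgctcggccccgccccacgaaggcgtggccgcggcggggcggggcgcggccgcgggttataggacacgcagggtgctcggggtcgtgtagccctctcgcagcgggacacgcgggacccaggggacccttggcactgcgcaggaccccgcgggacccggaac
The Cyp11a1 window holds AGGTCA at -229 and -95 from the start and has no SF-1 match. In the Fdx1 window the SF-1 match begins at -209, and AGGTCA also occurs, at -201. Motifs were searched on both strands. The SF-1 letters (AAGGTCA or AAGGCCA, the former of which contains AGGTCA) occurred in 10.1% of all 27457 promoters of the table and 8.94% of the 3871 that belong to measured genes. They were in 6 of 40 promoters of the higher genes (15%) and in 2 of 49 of the lower genes (4.08%). The retinoid receptor hexamer in either form (AGGTCA or AGTTCA) occurred in 27.4% of all promoters, 21.9% of those of measured genes, 30.0% of those of the higher genes and 26.5% of those of the lower genes. In the Leydig list 8 of the 12 promoters matched held it (66.7%). These shares describe letters only.

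Of the 40 lists, that of spermatid genes had the lowest median change from 4 h to 24 h. Spermatids pack their DNA by replacing histones with transition proteins (Tnp1 and Tnp2) and then protamines, and build a tail from outer dense fibres (Odf1 and Odf2) and a fibrous sheath (Akap4). All 19 measured members were below their 4 h value. Of them 10 were lower by at least 2-fold and 0 higher, against 1.41% and 1.06% of all genes. The median was -1.19, against -0.03 for all genes, and -1.05 after spike-in scaling. Each of the 10 members past 2-fold was read by 1 probe set. The 3 members read by 2 or more sequences had a median of -0.55. The list was one of those chosen with earlier results of these data known.

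The values show where the difference lay. Tnp2 had ratios of 7.64, 1.99 and 1.41 at 4, 8 and 24 h, a change of -2.44 or 5.41-fold, and was at 2.09 on the untreated array. The 4 h value was the highest of the 4 arrays. Tnp1 stood at 2.01, 0.924 and 0.706 at 4, 8 and 24 h (-1.51), and Odf1 at 2.25, 1.05 and 0.675 (-1.74). Smcp, which encodes a cysteine-rich protein of the sperm mitochondrial capsule, stood at 3.36, 1.48 and 1.11 (-1.60), and Cmtm2a, a chemokine-like factor gene of the testis, at 4.74, 1.41 and 1.0 (-2.24). For all of these the 4 h array was the high one and the 8 h array already low. The antizyme gene Oaz3 (-1.36), Odf2 (-1.34), the fatty acid binding protein gene Fabp9 (-1.22), Akap4 (-1.20) and the sperm surface gene Adam5 (-1.19) were the other members past 2-fold.

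Members short of 2-fold were Adam3a (-0.99), Spam1 (-0.89, from 3 probe sets), the transcription factor gene Crem, which drives spermatid genes (-0.55, from 4 probe sets), Prm2 (-0.43), Camk4 (-0.30), Adam6 (-0.25), the acrosin gene Acr (-0.24), Prm3 (-0.18) and Hook1 (-0.07). The protamine gene Prm2 therefore read 1.37 at 4 h and 1.01 at 24 h while the transition protein genes that act just before it were far apart. The whole list had a median ratio of 1.04 on the untreated array, 1.68 at 4 h, 0.889 at 8 h and 0.809 at 24 h. With the 8 h array in place of the 4 h array, an alternative chosen after seeing the data, the list's median was -0.07 and 0 of 19 members were past 2-fold in either direction, where 0.507% of all genes were 2-fold higher and 0.655% lower. The list's difference thus rested on the 4 h array.

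The promoters of Tnp1 and Tnp2 are shown as those of a pair of genes with a shared role and like changes. Capitals mark the cyclic AMP response element TGACGTCA, to which CREM binds, in Tnp1 and the hexamer AGGTCA, on the opposite strand, in Tnp2.
Tnp1 promoter, chr9:82044229-82044528 (- strand): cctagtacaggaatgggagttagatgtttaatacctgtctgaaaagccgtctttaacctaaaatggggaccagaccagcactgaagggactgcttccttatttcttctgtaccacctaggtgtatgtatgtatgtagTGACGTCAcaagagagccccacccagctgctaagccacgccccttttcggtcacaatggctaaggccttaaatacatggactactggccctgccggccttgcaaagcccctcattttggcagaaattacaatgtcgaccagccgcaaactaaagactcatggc
Tnp2 promoter, chr10:5386485-5386784 (+ strand): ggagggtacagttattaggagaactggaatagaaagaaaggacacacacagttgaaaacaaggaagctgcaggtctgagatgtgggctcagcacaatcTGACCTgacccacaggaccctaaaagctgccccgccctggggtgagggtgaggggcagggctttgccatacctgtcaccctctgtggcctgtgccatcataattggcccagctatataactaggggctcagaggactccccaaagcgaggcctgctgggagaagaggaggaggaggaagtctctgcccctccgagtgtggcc
The TGACGTCA of Tnp1 begins at -113 from the start and the hexamer of Tnp2 at -152. TGACGTCA occurred in 1.91% of all promoters and in 1 of the 13 spermatid promoters matched, that of Tnp1. The retinoid receptor hexamer in either form occurred in 8 of the 13 (61.5%). The TATA letters TATAAA (14.3% of all promoters) were found in 1 of the 13.

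Spermatocyte genes followed the spermatid genes in part. Pachytene spermatocytes are germ cells in meiotic prophase, whose paired chromosomes are joined by the synaptonemal complex. Of 10 measured genes 2 were lower past 2-fold and 0 higher, against 1.41% and 1.06% of all genes. Their median was -0.44. Tcp11, a testis gene linked to sperm function, had ratios of 2.06, 0.971 and 0.805 at 4, 8 and 24 h (-1.35), and Ldhc, the germ cell lactate dehydrogenase gene, 2.87, 1.32 and 1.16 (-1.31). As in spermatid genes, 4 h was high and 8 h already near the 24 h value. The synaptonemal complex genes lay on both sides of 0: Sycp3 was at -0.88, Sycp2 at -0.18 and Sycp1 at 0.23. The heat shock gene Hspa2 was at -0.54, the testis pyruvate dehydrogenase gene Pdha2 at -0.33 and the germ line helicase gene Ddx4 at 0.05. Against the 8 h array this list had a median of -0.12 and 0 of 10 past 2-fold.

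Other sperm genes past 2-fold were also highest at 4 h. Crisp2, a cysteine-rich secretory protein gene of the acrosome, stood at 2.02, 0.887 and 0.796 (-1.34), the axonemal dynein assembly gene Dnaaf1 at 2.66, 1.55 and 1.11 (-1.26), and the sperm sodium pump gene Atp1a4 at 1.51, 0.727 and 0.706 (-1.10). These were named after their values were seen. The ADAM family holds membrane proteases, several of which sit on the sperm surface. Of 10 measured, 2 were lower past 2-fold (Adam5 and Adam4, -1.13), against 1.41% of all genes, and the median was -0.47. The spermatid list also holds 3 of these 10 genes, Adam3a, Adam5 and Adam6. The widely expressed sheddase genes Adam10 (0.44) and Adam17 (0.34) were the 2 members above 0. The sperm surface genes Adam2 (-0.85) and Adam1a (-0.59) were below it.

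**Figure D3:**
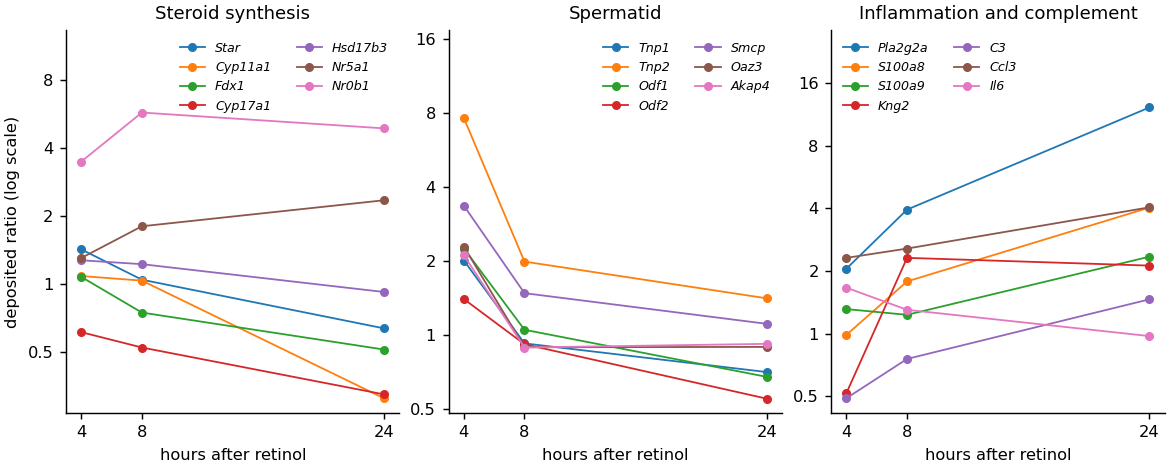
Deposited ratio (log scale) at 4, 8 and 24 h after retinol for genes of steroid synthesis and its regulators, of spermatids, and of inflammation and complement, a line for each gene and 1 array for each time. Apart from Odf2, which falls at both steps, the spermatid genes drop mainly between 4 h and 8 h. Cyp11a1 drops between 8 h and 24 h, and Pla2g2a and S100a8 climb at both steps.

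Spermatogonia are the germ cells that stay in the deficient testis, and retinoic acid turns them towards differentiation, marked by the receptor Kit. Kit had ratios of 1.08, 1.28 and 1.58 at 4, 8 and 24 h, a change of 0.55 with probe sets of the same sequence at 0.33 and 0.77. Its ligand gene Kitlg, made by Sertoli cells, stood at 1.23, 1.37 and 2.09, a change of 0.76 with probe sets at 0.72 and 0.80. Gdnf, the Sertoli factor that maintains spermatogonial stem cells, stood at 1.82, 1.89 and 1.06, a change of -0.77. The Gdnf receptor genes Gfra1 and Ret were at -0.37 and -0.30. The probe sets read -0.61 and -0.12 for Gfra1, and -0.74, -0.17 and 0.02 for Ret. Kit and Kitlg thus had positive changes and Gdnf a negative one, all short of 2-fold. The averages of Gfra1 and Ret were smaller in size than the noise of 1 probe set (SD 0.38). Uchl1, a gene of spermatogonia and neurons, was at 0.81, with 3 probe sets from 0.67 to 1.03. Of the 7 measured spermatogonial genes 0 were past 2-fold, against 2.47% of all genes, and their median was 0.00.

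Among Sertoli cell genes, 0 of 32 were past 2-fold in either direction, against 2.47% of all genes. Their median was -0.12 (0.02 after spike-in scaling). The positive end, 9 genes, was led by Kitlg, Cdh2 (N-cadherin, 0.70), Nr0b1 (0.49), Wt1 (0.39) and the gap junction gene Gja1 (2.33, 3.01 and 2.94 at the 3 times, or 0.33). The negative end held the prostaglandin D synthase gene Ptgds (-0.87), Gdnf, Serpina5 (-0.66), the inhibin alpha gene Inha (-0.59) and Fabp3 (-0.55). The hormone genes Amh (-0.39) and Inhba (-0.34) and the follicle-stimulating hormone receptor gene Fshr (-0.34) were below 0 too. In all, 23 of the 32 lay below their 4 h value.

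Inflammatory genes gave the largest positive changes, carried by few members. Pla2g2a, whose secreted enzyme frees fatty acids from phospholipids and kills bacteria, had ratios of 2.05, 3.94 and 12.2 at 4, 8 and 24 h, a change of 2.57. S100a8, a calcium binding protein gene of neutrophils and other myeloid cells, stood at 0.986, 1.78 and 4.03 (2.03). Its partner gene S100a9 stood at 1.31, 1.23 and 2.34 (0.83, short of 2-fold). Kng2, a kininogen gene, stood at 0.518, 2.31 and 2.12 (2.04). C3, the central complement gene, stood at 0.489, 0.755 and 1.46 (1.58), with probe sets at 2.39 and 0.77 that agree in sign and differ in size. Pla2g2a and S100a8 were highest at 24 h, while Kng2 had reached its level by 8 h.

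Of the 38 measured inflammatory and acute phase genes, 4 were 2-fold higher or more and 0 lower, against 1.06% and 1.41% of all genes. The median was 0.02. The cytokine and chemokine genes went both ways: Ccl3 was at 0.81, the interleukin gene Il6 at -0.77, Ccl2 at -0.65 and Cxcl10 at -0.50, while Tnf was at 0.02 and Il1b at -0.34. The complement regulator gene Cd55 was at 0.79 and haptoglobin (Hp) at -0.63. The secreted antibacterial lectin genes Reg3b (0.338, 0.657 and 1.02, or 1.59) and Reg3a (0.443, 0.652 and 1.07, or 1.27) were past 2-fold from low ratios at 4 h. The protease inhibitor gene Serpine2 (protease nexin) was at 1.40.

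Leukocyte markers were examined beside these values. Of 11 macrophage genes 0 were past 2-fold, against 2.47% of all genes, and 8 were above 0, with a median of 0.20. The 4 of them read by 2 or more sequences had a median of -0.03. C1qc was highest at 0.45 and Aif1 lowest at -0.23. The pan-leukocyte gene Ptprc was at 0.32, from probe sets at 1.01, 0.12 and -0.17. Of 22 lymphocyte, granulocyte and mast cell genes, 1 was 2-fold higher (S100a8) and 1 lower, against 1.06% and 1.41% of all genes. The lower one was Cd52 (1.23, 0.565 and 0.492, or -1.32), and the median was 0.21. Haemoglobin genes, which mark blood in the tissue, were at 0.50 (Hba-a3), 0.68 (Hbb) and 0.69 (Hbb-b1), though near-identical copies such as Hbb and Hbb-b1 may share probes. The erythroid genes Alas2 (-0.15) and Slc4a1 (-0.03) were near 0. The part of blood or leukocytes in the changes of S100a8 and Pla2g2a was not tested.

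Of 35 genes of antigen presentation and the interferon response 1 was past 2-fold, against 2.47% of all genes, and the median was -0.02. That member was the interferon-induced GTPase gene Mx2 (0.917, 1.36 and 0.374, or -1.29). The class II genes RT1-Db1 (-0.79) and RT1-Bb (-0.55, from 5 probe sets between -1.09 and -0.01) were below 0. For other class II genes, pairs of probe sets read -0.205 and -0.339 (RT1-Ba), 0.113 and -0.403 (RT1-DMa), and -0.224 and 0.804 (RT1-DMb). The class I genes RT1-N3 (0.50) and RT1-A3 (0.44) were above it, and rat class I genes are close copies that probes may not separate.

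Genes of retinoid handling lay on both sides of 0 and short of 2-fold between 4 h and 24 h. Of 17 measured genes of retinoid transport and metabolism 0 were past 2-fold, against 2.47% of all genes, and their median was 0.07. Crabp2, a carrier that brings retinoic acid to its receptor, had ratios of 0.238, 0.235 and 0.174 at 4, 8 and 24 h (-0.45), against 0.394 on the untreated array, so it was low on every array. Fabp5, another retinoic acid and fatty acid carrier gene, stood at 0.728, 0.432 and 0.387 (-0.91). Crabp1, which holds retinoic acid in the cytosol, was at 0.59. The dehydrogenase genes that turn retinal into retinoic acid were at -0.51 (Aldh1a2) and -0.15 (Aldh1a1). The retinol oxidising gene Rdh10 was at -0.09 (1.53, 2.04 and 1.44) and the retinol dehydrogenase genes Adh4 and Rdh7 at 0.76 and 0.66. Cyp26b1, whose enzyme degrades retinoic acid, was at 0.07. Rpe65, the isomerase gene of the eye, was at 0.64 from low ratios (0.325, 0.223 and 0.506).

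The receptor genes themselves had changes of both signs, all short of 2-fold. Rara was at 0.15 (3 probe sets), Rarb at -0.06, Rxrb at 0.42 and Rxra at -0.43. Rxrg was at -0.32, from probe sets at -0.68, -0.24 and -0.02. Of the 14 genes of retinoid receptors and targets, 1 was 2-fold higher and 0 lower (median 0.11), against 1.06% and 1.41% of all genes. That gene was Nr2f1, which encodes COUP-TF1, an orphan receptor that competes with retinoid receptors for DNA. It stood at 0.519, 0.921 and 1.05, a change of 1.02 with probe sets of 1 sequence at 1.16 and 0.89. Its relative Nr2f2 was at 0.59. Cdx1, a homeobox gene known to respond to retinoic acid in embryos, was at -0.97.

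In the wider nuclear receptor family, 2 of 32 genes were 2-fold higher or more and 0 lower, against 1.06% and 1.41% of all genes. The median was -0.04. Esr1, the oestrogen receptor alpha gene, had ratios of 1.26, 1.99 and 3.16 at 4, 8 and 24 h, a change of 1.32 from 1 probe set, and Nr2f1 was the other. The orphan receptor gene Nr4a2 was at 0.92, from probe sets at 1.45 and 0.39, and the thyroid hormone receptor gene Thrb at 0.65. The bile acid receptor gene Nr1h4 (-0.88), Nr5a2 (-0.72) and the oestrogen receptor beta gene Esr2 (-0.60) were at the negative end. The oestrogen receptor genes Esr1 and Esr2 thus had opposite signs, and the SF-1 gene Nr5a1 (0.84) and its relative Nr5a2 as well.

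**Figure D4:**
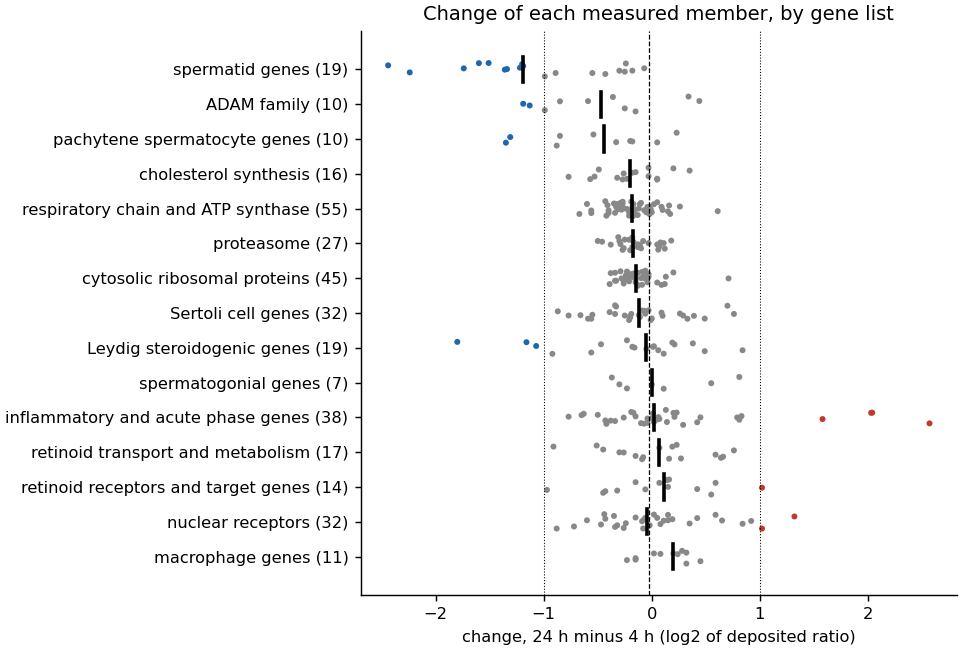
Change from 4 h to 24 h (log2 of deposited ratio) of each measured gene in 15 gene lists, with the number measured in brackets, a black bar at the list's median, a dashed line at the median of all genes and dotted lines at 2-fold. Spermatid genes lie to the left with 10 of 19 past 2-fold, and the inflammatory list has 4 genes far to the right of a median of 0.02.

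Among iron handling genes, 1 of 12 was past 2-fold, against 2.47% of all genes in either direction. That gene, Alas1, encodes the rate-limiting enzyme of haem synthesis, which supplies the P450 enzymes. It stood at 2.32, 1.28 and 0.957 at 4, 8 and 24 h, a change of -1.28 with probe sets of 1 sequence at -1.39 and -1.17. Slc40a1, the iron exporter gene, was at 0.89 (probe sets at 0.81 and 0.97), and Slc11a2, an iron importer gene, at -0.61 (3 probe sets from -0.70 to -0.47). The transferrin receptor gene Tfrc stood at 1.80, 3.05 and 1.41 (-0.35), with its high value at 8 h. The list's median was -0.07.

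Of 16 cholesterol synthesis genes 0 were past 2-fold, against 2.47% of all genes, and 12 were below 0 (median -0.20). Acat2 was at -0.77, Nsdhl at -0.57, Fdps at -0.53 and Mvk at -0.49, while the regulator gene Srebf1 was at 0.35. Of 35 genes of fatty acid uptake and oxidation, 2 were higher and 1 lower by 2-fold or more, against 1.06% and 1.41% of all genes. Their median was 0.00. The intestinal type fatty acid binding protein gene Fabp2 stood at 1.58, 2.51 and 4.41 (1.49), and the acyl-CoA dehydrogenase gene Acadsb at 2.20, 5.49 and 4.77 (1.12). The acyl-CoA synthetase gene Acsl6 stood at 1.70, 0.917 and 0.808 (-1.07). Cd36, the fatty acid scavenger receptor gene, was at 2.64, 3.63 and 3.59 (0.45), already high at 4 h. Outside these lists, Trib3, a pseudokinase gene of the stress response, was lower (-1.04, probe sets at -0.74 and -1.34), and it was named after its value was seen.

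Families of abundant housekeeping genes were shifted slightly and without any member past 2-fold, against 2.47% of all genes. Of 45 ribosomal protein genes 39 were below 0 (median -0.15), of 55 respiratory chain and ATP synthase genes 46 (median -0.18), and of 27 proteasome genes 20 (median -0.17). Of 27 chaperone and heat shock genes 0 were past 2-fold and the median was -0.04. Their mitochondrial members lay on both sides of 0, with Hspe1 at -0.80, Hspd1 at -0.48 and Hspa9 at 0.13. The 9 hybridisation spike-ins, bacterial transcripts added in fixed amounts, were all lower at 24 h, by a median of -0.14. Scaling the arrays on them would move every gene by 0.14, about the size of these list medians, and puts the medians at -0.01, -0.05 and -0.04, so a shift of these families is not settled. That scaling also turns the split of genes past 2-fold from 50 higher and 67 lower to 81 and 45, and taking only the probe set of highest mean ratio per gene turns it to 83 and 71. Control probe sets along actin, GAPDH and hexokinase moved apart by a mean of 0.30 (the change at the 5′ end minus that at the 3′ end), and the part of this in single genes was not tested.

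Immediate early and stress genes, which respond within the hour to many stimuli, had 0 of 37 members past 2-fold and a median of 0.00. The MAP kinase phosphatase gene Dusp6 came closest, at 0.99, from probe sets at 0.35 and 1.63. Of 36 genes of TGF-beta, activin and BMP signalling 0 were past 2-fold, and the values nearest to it were those of Gdnf, Bmp4 (0.72), Smad9 (0.67) and Smad1 (0.62). Cell cycle genes (32 measured, median -0.08) and genes of the insulin-like growth factor axis (15 measured, median 0.09) had none past 2-fold. Peritubular myoid genes (10 measured, median 0.06) and endothelial genes (12 measured, median 0.07) had none either. The counts of this paragraph are to be read beside the 2.47% of all genes past 2-fold.

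Cyclic AMP signalling carries the action of both gonadotropins. Of its 34 measured genes 1 was higher and 3 lower by 2-fold or more (median -0.06), against 1.06% and 1.41% of all genes. The phosphodiesterase gene Pde1b stood at 0.677, 1.29 and 1.49 (1.14). The adenylate cyclase gene Adcy4 stood at 0.629, 0.492 and 0.293 (-1.10), the anchoring protein gene Akap5 at 2.13, 1.02 and 1.02 (-1.06), and the stimulatory G protein gene Gnal at 10.4, 10.2 and 4.93 (-1.07). Gnal was level between 4 h and 8 h and lower at 24 h.

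Genes of mixed kind made up the rest of the 15 most negative changes. Dpysl4 stood at 1.03, 0.343 and 0.0703 at 4, 8 and 24 h (-3.87). The granzyme gene Gzmn stood at 4.33, 2.19 and 0.803 (-2.43), the hyaluronan synthase gene Has2 at 2.44, 1.69 and 0.477 (-2.36) and the secretoglobin gene Scgb2a1 at 0.762, 0.320 and 0.164 (-2.22). In each of these the 8 h value lay between the others. The RNA editing gene Adarb1 (-1.74), the myosin gene Myh8 (-1.59), the potassium channel gene Kcnc1 (-1.59), Tesc, a calcium binding protein gene (-1.52), and the glycine receptor gene Glra3 (-1.43) completed the set. Spock2, a proteoglycan gene, was at -1.36 from low ratios (0.187, 0.113 and 0.0728).

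The rest of the 15 most positive changes began with Ptprd, a receptor tyrosine phosphatase gene, at 1.75, 5.26 and 5.87 (1.74). For Ugt2b35, a glucuronosyltransferase gene, the average of 1.55 hid a split between its probe sets, 3.33 against -0.23. Zswim9 (1.48), the odorant receptor gene Or8g20e (1.47), the surfactant gene Sftpc (1.43), the nicotinic receptor gene Chrna5 (1.38), the eye and pancreas transcription factor gene Pax6 (1.37) and Chat, which makes acetylcholine (1.36), completed the set. Foxa2, a forkhead factor gene of endoderm, was at 1.35 and stood at 0.0933, 0.211 and 0.238, so it was far below 1 on each of these arrays. Ptprd and Sftpc (0.973, 2.36 and 2.63) had reached most of their level by 8 h, while Pax6 (1.28, 1.30 and 3.31) had not moved by then.

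**Figure D5:**
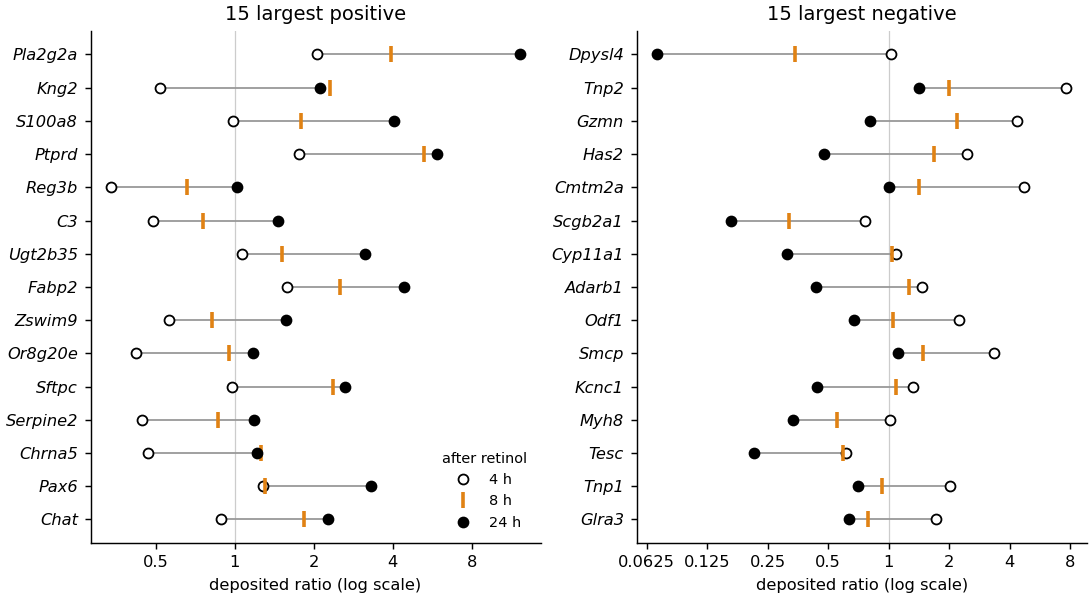
Deposited ratio (log scale) at 4 h (open circles), 8 h (orange bars) and 24 h (filled circles) for the 15 genes furthest up and the 15 furthest down from 4 h to 24 h, 1 array for each time. Pla2g2a runs from 2.05 to 12.2 and Dpysl4 from 1.03 to 0.0703.

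Larger families outside the testis themes had few members past 2-fold, to be read beside the shares of 1.06% and 1.41% over all genes. Of 120 solute carrier genes 4 were higher and 1 lower past 2-fold, with the sulphate carrier gene Slc13a1 (1.31), the zinc exporter gene Slc30a1 (1.20), the dicarboxylate carrier gene Slc13a3 (1.14) and the riboflavin carrier gene Slc52a3 (1.05) on the positive side. The mitochondrial carrier gene Slc25a30 (-1.07) was on the negative side. Of 73 voltage-gated channel genes 1 was higher (Cacnb4, 1.24) and 1 lower (Kcnc1). Of 69 neurotransmitter-gated receptor genes 1 was higher (Chrna5) and 2 lower (Glra3 and Gabra4). The average for Gabra4, -1.24, rests on 1 probe set (-2.57), as the other read 0.08. Of 49 cytochrome P450 genes Cyp4f5 (1.35) and Cyp3a18 (1.19) were higher and Cyp11a1 lower.

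Of the remaining genes past 2-fold, those given here were chosen after their values were seen and were read by 1 probe set except where another number is given. On the negative side, several had the course of the spermatid genes, high at 4 h and lower by 8 h. Among these the dendritic cell lectin gene Clec9a stood at 3.27, 1.46 and 1.25 at 4, 8 and 24 h (-1.39), and Fbp1, a gluconeogenic enzyme gene, at 1.38, 0.668 and 0.538 (-1.36). Others were level from 4 h to 8 h and low at 24 h. Among those the secretory granule gene Zg16 stood at 2.61, 2.61 and 1.08 (-1.27), and Tnfsf4, the costimulatory ligand OX40L gene, at 2.40, 2.44 and 1.07 (-1.16). The proto-oncogene Mycn stood at 0.874, 0.632 and 0.394 (-1.15), the water channel gene Aqp8 at 0.984, 0.678 and 0.488 (-1.01) and the histone gene H3c1 at 0.940, 1.21 and 0.453 (-1.05).

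On the positive side, the ectonucleotidase gene Enpp1 stood at 1.26, 2.43 and 3.18 (1.34) and the alpha-1A adrenergic receptor gene Adra1a at 0.677, 1.03 and 1.61 (1.25). For both the 8 h value lay between the others. The liver glycogen synthase gene Gys2 stood at 0.937, 1.06 and 2.18 (1.22), and Chm, which encodes an escort protein for Rab GTPases, at 1.51, 1.56 and 3.04 (1.01). These moved after 8 h. The dystrophin gene Dmd (0.929, 1.58 and 1.96, or 1.07) and the kinase gene Pak1 (0.915, 1.87 and 1.91, or 1.06) had most of their difference by 8 h. Tnfrsf11b, which encodes the decoy receptor osteoprotegerin, was at 1.08, the glucagon receptor gene Gcgr at 1.24, and Hnmt, which inactivates histamine, at 1.12 from probe sets at 0.58 and 1.66.

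Probe sets with no gene in the platform annotation were counted apart. Of 1426, 44 were past 2-fold upwards (3.09%) and 29 downwards (2.03%). Together these were 5.12%. Among named genes, 3.25% of those with 1 probe set were past 2-fold in either direction, against 0.895% of those averaged over several.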

How the data were processed

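Whole rat testis was profiled on Affymetrix arrays, 1 array per group; biotinylated cRNA was made from 10 micrograms of total RNA, per the labels. The values deposited by the authors are linear ratios per probe set. GCOS and MAS5 are named in the submitters' processing notes; the sources used here do not give versions, the scaling or the reference of the ratios. Signal and background were not kept in the ratios, so precision is limited by the number of arrays. Of 8799 probe sets, 59 controls, 308 with several symbols and 1426 with none in the platform annotation were set aside. The other 7006 (6985 updated through RefSeq, GRCr8) gave 4736 genes. With Python 3.11.15 and pandas 2.3.3, log2 ratios at 24 h minus 4 h were averaged per gene, and genes past 2-fold were counted. No test was made, and no p-value is given. The steps were tested on simulated data. The members and lists were chosen with earlier results of these data known. Named genes are the 15 largest changes in each direction, genes whose probe sets all agreed, up to 4 members of each of 40 lists (printed in part) and a fixed set; others were named after their values were seen. Alternatives were other scalings, summaries, probe sets, a pseudocount of 0.25 and thresholds.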

Additional observations from a re-analysis of the deposited data

How the results depend on the processing

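With 1 array a side and no signal levels, the noise of 1 probe set (SD 0.38) is the only limit that can be stated, and the spread between animals is unknown. No paired analysis was possible because each group has 1 array. The counts of genes past 2-fold upwards and downwards (50 and 67) were 54 and 64 after median centring, 81 and 45 after spike-in scaling, 83 and 71 when each gene took its highest-ratio probe set, 25 and 31 with a pseudocount of 0.25, and 5 and 9 among genes with 2 or more probe sets, where fewer genes were counted. A 1.5-fold threshold gave 248 and 257, and the 8 h array in place of the 4 h array, added after seeing the data, 24 and 31. With the 8 h array, 7 of the 50 higher genes and 12 of the 67 lower genes were still past 2-fold. Under spike-in scaling all 50 higher genes and 45 of the 67 lower genes were. The count of genes whose probe sets were all past 2-fold, 1, was 0 under spike-in scaling, the pseudocount, several-symbol probe sets kept and the 8 h array, and 16 at 1.5-fold. The change of Gabra4 turned to 0.08 with its highest-ratio probe set and without probe sets under 0.5 on both arrays. With the 8 h array, 13 of the 117 genes past 2-fold turned sign: Kng2 (-0.12), Chrna5 (-0.04), Acadsb (-0.20), Cacnb4 (-0.08), Akap4 (0.05), Akap5 (0.01), Cap2 (0.08), Dhrs7c (0.19), Fabp9 (0.61), Lgals7 (0.17), Mas1 (0.54), Oaz3 (0.00 after rounding) and Tmod2 (0.31). Genes short of 2-fold that did so include Adam3a (0.83), Nr0b1 (-0.23), Sycp2 (0.37) and Fdps (0.06). The causes of the scaling and summary differences were not tested.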
